A study of Mus musculus with 14 samples.

Results

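The spleens of mice treated with imiquimod cream on the back were compared with those of vehicle-treated mice across all named genes, with the weight on transporters, transcription factors, metabolic enzymes and signalling genes. All mice were wild-type BALB/c females of 6 to 8 weeks. Of the 4 groups sequenced, 3 are compared here. The libraries of the fourth entered only the low-count filter, the scaling and the shared fit behind the errors and p-values. The imiquimod-dorsal group (n = 4, replicate numbers 2 to 5) had received imiquimod cream at 5% on the dorsal skin once a day for 5 days. The control group (n = 3, numbers 2, 4 and 5) had received petrolatum as vehicle on dorsal skin and ears; the design text of the series calls it untreated. The imiquimod-ear group (n = 4, numbers 1, 3, 4 and 5) had received the same cream on the ear and serves as a second reference. Dorsal and control animals gave 7 of the 14 libraries of the series, and 22116 of 22740 entries of the count table carried a gene name. Poly(A) RNA of whole spleen was read non-stranded from both fragment ends. The labels place all libraries in 1 batch and call them biological replicates; some replicate numbers are missing, and whether animals were left out is not known.

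Imiquimod activates Toll-like receptor 7, an innate sensor of single-stranded RNA, and daily application to mouse skin is a widely used model of psoriasis-like inflammation. The spleen filters blood and holds B cell follicles, T cell zones, macrophages and, in mice, sites where red cells and granulocytes form under stress. Membrane carriers bring amino acids, sugars, nucleosides and metals into such cells, metabolic enzymes turn these into biomass and energy, and transcription factors set which of them each cell type makes.

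The control libraries held 28354674 to 35086665 counts over named genes and the imiquimod-dorsal libraries 35024011 to 40289411. Of 15159 genes with enough counts for a test, 9071 (59.8%) passed, 4890 (32.3%) being higher and 4181 (27.6%) lower in imiquimod-dorsal spleen. A change of at least 2-fold was called for 19.8%, 10.6% higher and 9.21% lower, and for 61.1% the 4 dorsal libraries did not overlap the 3 controls. Most genes named below were picked under a rule that requires this lack of overlap, so their separation is no further result. Called shares of any gene group are therefore to be read against about 32.3% higher and 27.6% lower. Values are CPM, counts per 1000000 counts after scaling by the trimmed mean of M-values (TMM), given for controls 2, 4 and 5 and then dorsal 2, 3, 4 and 5, in that order; differences are log2 fold changes, dorsal minus control, with their SE. They are relative to the other RNA in the library, so that a larger share of one cell type lowers genes of the rest, and in whole tissue more cells of a type and more RNA per cell cannot be told apart. The scaling matters here: 53.9% of called genes were higher with TMM, 34.7% with upper-quartile scaling and 27.5% with library totals, which moved the median of all genes by -0.23 and -0.34. Rises smaller than these shifts can therefore turn with the scaling.

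Other cell types moved with the treatment. Of 92 tested erythroid genes 89 were higher, and their summed level was 15959 to 42249 CPM in the controls and 108857 to 176864 CPM in the dorsal libraries. The neutrophil list rose from 457 to 576 CPM in the controls to 2197 to 3470 CPM, with 44 of 52 genes higher, whereas 80 of 94 T and NK cell genes were lower. Cell cycle genes were higher for 133 of 157, and 168 of 220 interferon genes were lower. These shifts run beside every gene group below, and their part in each was not tested. Of 19 spleen markers 18 were tested, 1 being higher and 10 lower; Clec4f was at 0 in all 7 libraries. Pancreas genes summed to 562 CPM in dorsal 4 against 10.8 to 17.0 CPM in the other 6 libraries, with Ins1 and Ins2 at 0, and adipose genes to 57.8 CPM in control 5 against 5.69 to 18.5 CPM in the others. Keratinocyte genes summed to 8.08 to 11.4 CPM in the controls and 4.59 to 6.77 CPM in the dorsal libraries, with Krt5, Krt6a, Krt16, Flg and Krtdap at 0. Liver genes summed to 35.9 to 51.2 CPM in the controls and 72.2 to 86.2 CPM in the dorsal libraries. Only 3 of the 13 liver genes were tested, 1 being higher and 1 lower.

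In 50 gene lists with 1730 different genes, 1668 were tested; 584 were higher and 488 lower. The classes differed in their balance. Among 530 tested genes of metabolism 237 (44.7%) were higher and 108 (20.4%) lower, with a median log2 fold change of 0.20 that turned to -0.03 with upper-quartile scaling and -0.14 with library totals. Those scalings called 33.0% higher and 33.6% lower, and 29.1% and 38.5%, while the median of all genes moved by -0.23 and -0.34. Over all 15159 tested genes 3346 were higher and 6302 lower with upper-quartile scaling, and 2749 and 7242 with library totals. Among 245 transcription factor genes 46 (18.8%) were higher and 104 (42.4%) lower, with a median of -0.22 (-0.45 and -0.56 with the other scalings). Transport genes, with 100 of 312 (32.1%) higher and 95 (30.4%) lower, were near the 32.3% and 27.6% of all tested genes. Their median was -0.03 (-0.26 and -0.36 with the other scalings, where 44.2% and 50.3% were lower). These shares describe the lists and were not tested as sets. The plot of list medians sets the classes side by side.

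**Figure D1:**
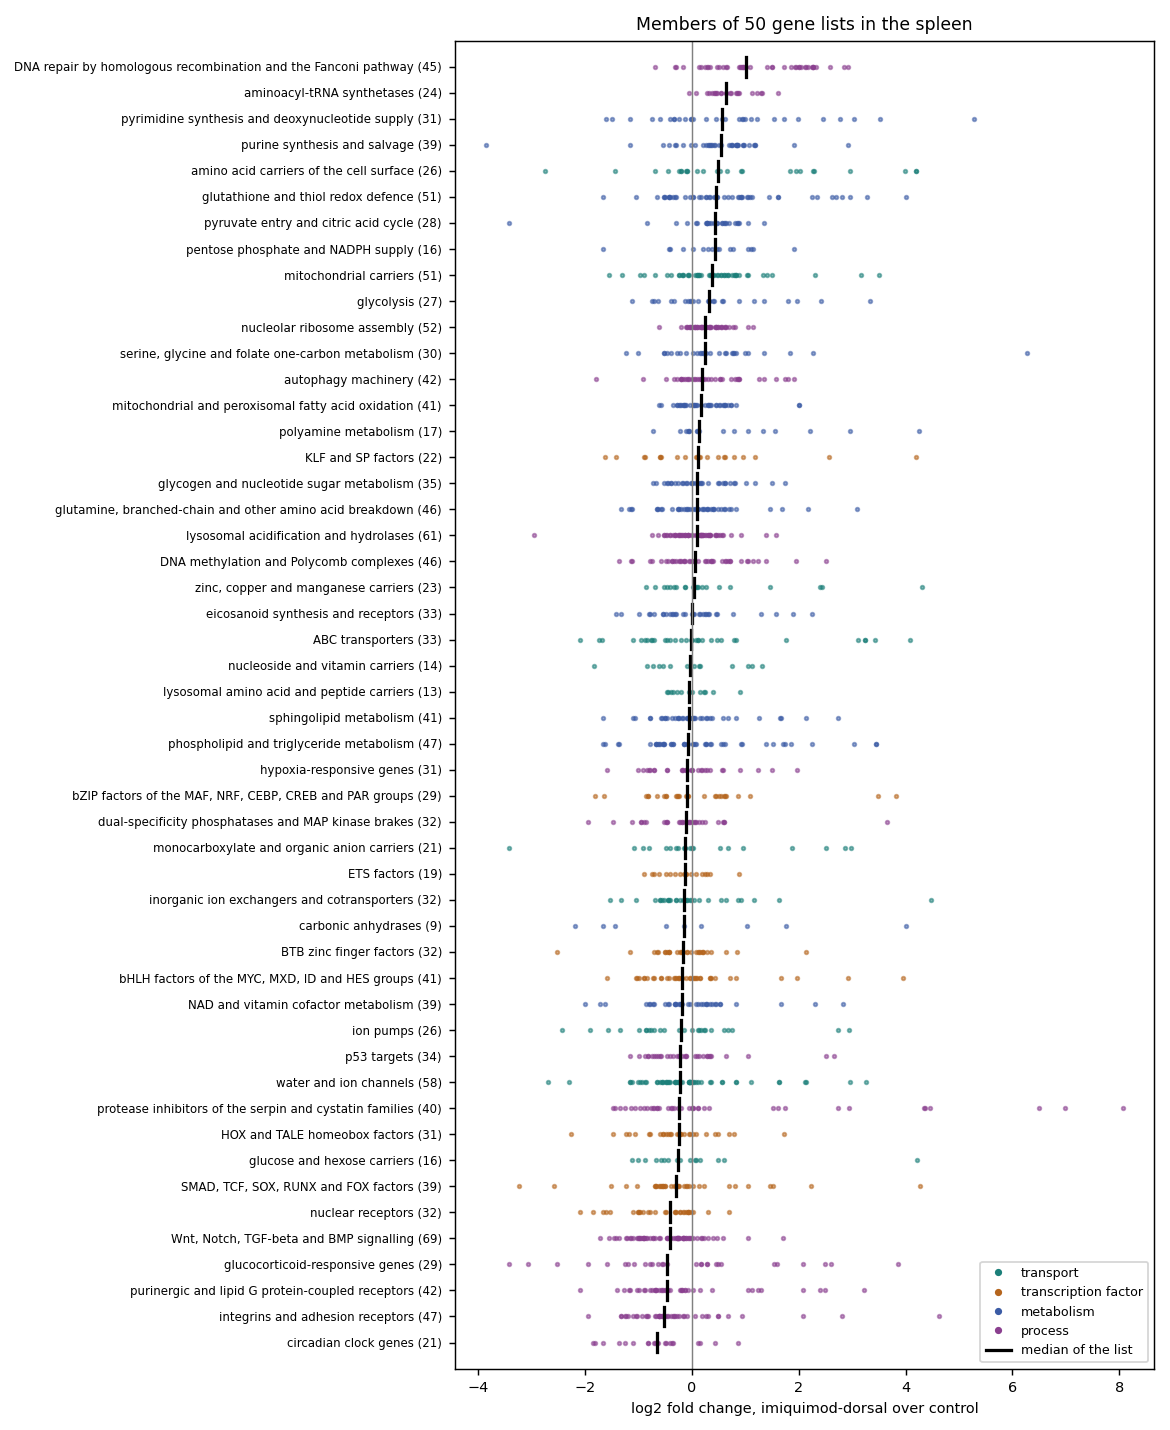
Log2 fold change (imiquimod-dorsal over control, horizontal axis) of the tested members of each gene list, 1 point per gene, coloured by class, with the list median as a bar and the number of tested genes in brackets. The medians run from 1.01 for homologous recombination genes to -0.66 for clock genes.

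Amino acid carriers of the cell surface leaned upwards, with 13 of 26 tested genes higher, 4 lower and a median log2 fold change of 0.50 (0.27 with upper-quartile scaling and 0.17 with library totals). Slc43a1, which exchanges large neutral amino acids, was at 12.5, 15.4 and 16.8 CPM in the controls and at 253, 350.3, 263 and 231 CPM in the dorsal libraries, a log2 fold change of 4.20 ± 0.54 (adjusted p = 4.67e-05). All 4 dorsal libraries lay far above every control. Slc38a5, a carrier of glutamine and small neutral amino acids, went from 3.95, 7.17 and 13.8 CPM to 151, 179, 147 and 132 CPM (4.19 ± 0.65). The glycine carrier Slc6a9 went from 13.3, 12.7 and 9.95 CPM to 184, 249, 172 and 157 CPM (3.99 ± 0.53). In these genes dorsal 3 was the highest library, and control 2 or 5 the control closest to it. Smaller rises were found for Slc7a5, the large neutral amino acid exchanger (1.95), for its heavy-chain partner Slc3a2 (0.65) and for the glutamine carrier Slc1a5 (0.93). Slc3a2 is named after its value was seen. The cystine carrier Slc7a11 did not pass (-0.21, adjusted p = 0.229), with 39.1, 29.9 and 40.8 CPM in the controls and 35.8, 24.6, 32.2 and 34.2 CPM in the dorsal libraries, and its groups overlapped; it was lower with upper-quartile scaling (-0.44), with library totals (-0.54) and without control 4 (-0.39, adjusted p = 0.0389). The cationic amino acid carrier Slc7a2 fell by 1.44.

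Glucose carriers changed in opposite directions. Slc2a4, the insulin-regulated carrier GLUT4 of muscle and fat, was at 1.43, 1.89 and 1.79 CPM in the controls and 33.0, 35.3, 27.1 and 31.6 CPM in the dorsal libraries (4.22 ± 0.70, adjusted p = 0.000265). Slc2a1, the broadly expressed carrier GLUT1, was at 65.0, 59.4 and 48.7 CPM and 31.0, 26.4, 25.5 and 31.2 CPM (-1.02 ± 0.10, adjusted p = 3.72e-06). Neither gene had a dorsal library within the control range, and every dorsal library was high in one and low in the other. Slc2a3, the high-affinity carrier GLUT3, did not pass (0.15, adjusted p = 0.434). Muscle markers summed to 22.0 to 27.0 CPM in the controls and 23.1 to 29.2 CPM in the dorsal libraries, and adipose markers to 5.69 to 57.8 CPM and 7.66 to 12.8 CPM. Erythroid genes summed to 15959 to 42249 CPM and 108857 to 176864 CPM. The part of each of these cell types in the Slc2a4 level was not tested. Of the 16 tested glucose and hexose carriers 3 were higher and 6 lower, with a median of -0.25.

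Monocarboxylate carriers were also split. Slc16a1, which moves lactate and ketone bodies, was at 60.5, 69.3 and 82.9 CPM in the controls and 394, 478, 380.3 and 367 CPM in the dorsal libraries (2.51 ± 0.25). Its relative Slc16a5 was at 7.69, 6.14 and 4.82 CPM and 0.596, 0.512, 0.325 and 0.886 CPM (-3.41 ± 0.46), so no dorsal library came near the controls in either gene. Slc29a1, which carries nucleosides by facilitated diffusion, rose from 58.0, 61.1 and 78.5 CPM to 161, 182, 164 and 152 CPM (1.32 ± 0.11), and the folate carrier Slc19a1 and the thiamine carrier Slc19a2 rose by 0.75 and 1.05.

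Metal carriers included one of the 15 largest rises under the naming rule, which passes over the cell type lists, genes of low level and overlapping groups. This was the manganese exporter Slc30a10, at 0.208, 0.256 and 0.958 CPM in the controls and 9.42, 10.2, 10.4 and 8.20 CPM in the dorsal libraries (4.30 ± 0.84, and 5.30 without control 5). Slc39a8, which takes up zinc and manganese, rose by 2.40 and the copper pump Atp7b by 2.43 (3.54 without control 5). The zinc importers Slc39a4, Slc39a10 and Slc39a14 fell by 0.86, 0.47 and 0.69. Over 23 tested genes 7 were higher and 5 lower; the median was 0.04 and lay below 0 with upper-quartile scaling, with library totals and without control 2 or control 4. Ferroportin (Slc40a1), the iron exporter, did not pass (-0.02, adjusted p = 0.923).

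Of 51 tested mitochondrial carriers 27 were higher and 7 lower, with a median of 0.38 (0.15 with upper-quartile scaling and 0.05 with library totals). The iron carrier Slc25a37, known as mitoferrin 1, was at 204, 182 and 158 CPM in the controls and 1864, 2626, 2009.9 and 1686 CPM in the dorsal libraries (3.50 ± 0.46). Slc25a38, which carries glycine for haem synthesis, rose by 2.30, and Slc25a21, which carries oxodicarboxylates, by 3.16 (3.92 without control 5). Both glycine carriers, Slc6a9 at the cell surface and Slc25a38 in mitochondria, were thus higher in all 4 dorsal libraries than in any control.

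Among 33 ABC transporters 11 were higher and 14 lower (9 lower without control 2). Abcg2, an exporter of porphyrins and drugs, was at 18.1, 22.7 and 23.7 CPM in the controls and 166, 259, 206 and 186 CPM in the dorsal libraries (3.25 ± 0.38). Abcg4, a sterol exporter, rose by 4.08 (4.89 without control 5) and the mitochondrial Abcb10 by 3.44. Abcb1a, one of the P-glycoprotein drug pumps, was at 17.1, 17.2 and 19.0 CPM and 5.19, 5.28, 5.37 and 5.54 CPM (-1.73 ± 0.13), and the cholesterol exporter Abca1 fell by 0.76. Pumps and water channels had members on both sides: Atp2b4, a calcium pump of the plasma membrane, rose by 2.95, the sodium pump subunit Atp1b2 by 2.74, and the water channels Aqp1 and Aqp9 by 3.27 and 2.14, whereas the sodium pump subunit Atp1b1 fell by 2.43 and the water and glycerol channel Aqp3 by 2.68. Aqp3 was at 3.22, 2.27 and 1.53 CPM in the controls and 0.511, 0.416, 0.0650 and 0.443 CPM in the dorsal libraries, with no overlap. Of 58 channels 11 were higher and 25 lower, the calcium release channel Ryr3 being among the 15 largest falls under the naming rule (-3.29 ± 0.22).

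**Figure D2:**
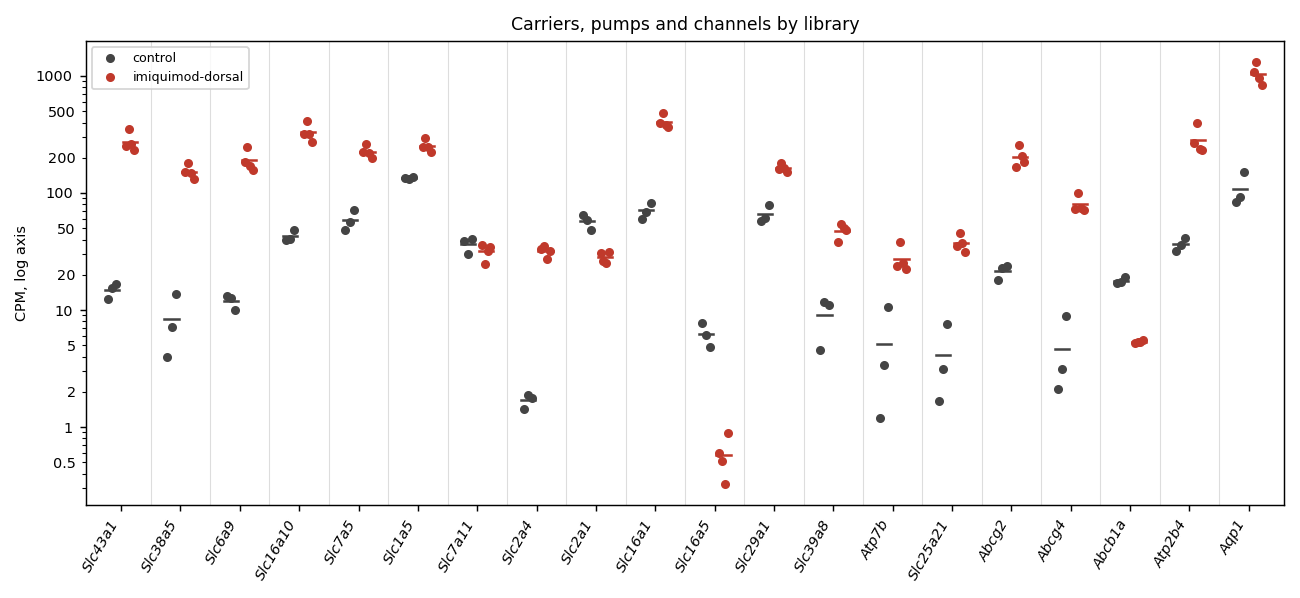
CPM of 20 carriers, pumps and channels on a log axis, 1 point per library, with group means as bars, for control and imiquimod-dorsal spleen. Slc2a4 is higher and Slc2a1 lower in all 4 dorsal libraries, and Slc7a11 overlaps between the groups.

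Enzymes that exist as several gene copies changed unequally. Of the hexokinases, which trap glucose in the cell, Hk1 was at 104, 109 and 138 CPM in the controls and 341, 498, 396 and 383 CPM in the dorsal libraries (1.79 ± 0.16), and Hk2 at 15.9, 23.2 and 24.4 CPM and 24.6, 16.1, 19.8 and 19.5 CPM (-0.08 ± 0.24, adjusted p = 0.789). Hk1 separated the groups and Hk2 overlapped. Of the phosphofructokinases, which commit sugar to glycolysis, Pfkm rose by 2.42 and Pfkl by 0.32 (64.5, 72.4 and 79.1 CPM against 88.8, 90.7, 92.4 and 88.1 CPM, adjusted p = 0.00504), although Pfkl did not pass with upper-quartile scaling (0.09), with library totals (-0.01) or without control 2 (0.20, adjusted p = 0.0753). Pfkp, at 76.0, 80.6 and 82.8 CPM and 70.7, 49.6, 58.7 and 64.5 CPM, did not pass (-0.39 ± 0.17, adjusted p = 0.0585) but was lower with most other tools, scalings and filters, including DESeq2 (-0.42, adjusted p = 0.0264), and without dorsal 2 (-0.47, adjusted p = 0.037). Pklr, the pyruvate kinase of liver and red cells, was at 4.88, 7.94 and 32.5 CPM and 120.1, 195, 167 and 130.3 CPM (3.34 ± 0.75, and 4.53 without control 5), while Pkm, the form of most other tissues, did not pass (-0.13 ± 0.14, adjusted p = 0.45). With upper-quartile scaling and library totals Pkm passed as lower (-0.36 and -0.46). Hk1, Pfkl and Pfkp are named after their values were seen.

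Glycolysis as a list had 12 of 27 genes higher and 4 lower, and its median of 0.31 was 0.08 with upper-quartile scaling and -0.02 with library totals. Ldha, the lactate dehydrogenase subunit of glycolytic tissue, passed at 0.41 ± 0.14 (adjusted p = 0.0194); it did not pass with upper-quartile scaling (0.18), with library totals (0.07), without control 2 (0.29, adjusted p = 0.128) or without control 4 (0.31, adjusted p = 0.117). Ldhb, the other main subunit, fell by 0.74, and Pfkfb3, which makes an activator of phosphofructokinase, by 0.70. The regulators of pyruvate entry into mitochondria were split as well. Pdk4, a kinase that turns pyruvate dehydrogenase off, was at 47.6, 32.0 and 18.0 CPM in the controls and 3.55, 3.75, 2.50 and 2.31 CPM in the dorsal libraries (-3.42 ± 0.57, adjusted p = 0.000269). The related kinase Pdk3 was higher (0.86 ± 0.13) and Pdk1 did not pass (0.29 ± 0.13, adjusted p = 0.0635); both are named after their values were seen. In the list of pyruvate entry and the citric acid cycle 21 of 28 genes were higher and 3 lower, with a median of 0.44, among them the subunit Pdhx of pyruvate dehydrogenase (1.06), the dehydrogenase subunit Idh3a (0.89) and pyruvate carboxylase Pcx (1.36).

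**Figure D3:**
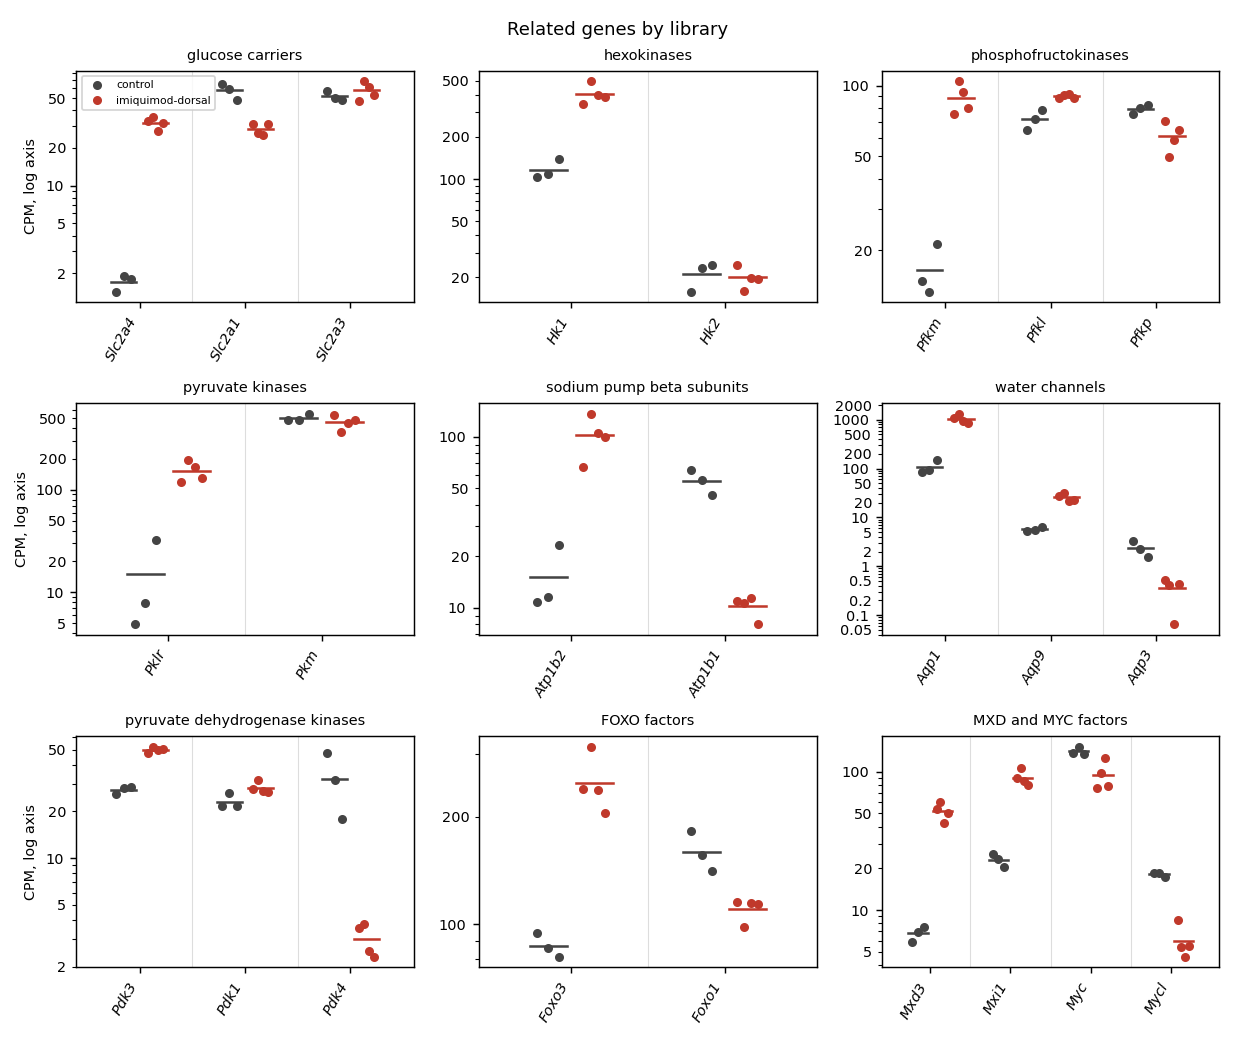
CPM on a log axis, 1 point per library with group means as bars, for 9 sets of genes with related roles in control and imiquimod-dorsal spleen. Slc2a4, Hk1, Pfkm and Pklr are higher in all 4 dorsal libraries, Pdk4 lower, and Hk2 overlaps.

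The start region of Pklr is shown because the gene rose and its window holds a GATA word, the letters recognised by GATA factors, which direct the red cell programme. Windows reach from 250 bases before to 50 bases after an annotated start. They are RefSeq sequences of a GRCm38.p6 table, placed on GRCm39 by an exact match, and BALB/c mice may differ from this reference. The searched words were AGATAA and TGATAA on either strand, and capitals mark the match. The Pklr window (chr3:89043199-89043498, plus strand, 1 of 2 annotated windows of the gene) holds it with its first base at -35 from the start.
Pklr: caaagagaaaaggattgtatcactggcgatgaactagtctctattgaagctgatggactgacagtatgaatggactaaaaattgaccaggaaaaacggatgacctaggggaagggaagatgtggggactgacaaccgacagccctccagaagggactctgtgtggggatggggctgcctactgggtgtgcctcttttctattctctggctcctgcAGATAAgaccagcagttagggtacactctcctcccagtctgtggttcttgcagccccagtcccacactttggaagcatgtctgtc
Of 27 glycolysis genes 9 (33.3%) held a GATA word, of which 5 were higher and 1 lower, against 18.6% of all 32851 windows and 13.0% of tested genes. Shares near this were found in other lists, such as purinergic, lipid and other G protein-coupled receptors (11 of 36, 30.6%). A match is a description of letters and no evidence of binding.

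Nucleotide synthesis was mostly higher. Of 39 tested purine genes 26 were higher and 5 lower (median 0.55), and of 31 pyrimidine and deoxynucleotide genes 18 were higher and 7 lower (median 0.56). Rrm2, the ribonucleotide reductase subunit that supplies deoxynucleotides in dividing cells, was at 38.2, 51.9 and 92.8 CPM in the controls and 637, 849.5, 682 and 622 CPM in the dorsal libraries (3.52 ± 0.40). Tyms, which makes thymidylate, rose by 3.03 and the thymidine kinase Tk1 by 2.78. Samhd1, which breaks deoxynucleotides down, went from 697, 988 and 814 CPM to 396, 366, 325 and 410.1 CPM (-1.15 ± 0.12), so it moved against these synthesis genes. Of the AMP deaminases, Ampd3, the form of red cells, rose from 24.8, 26.9 and 26.3 CPM to 94.3, 126, 91.7 and 82.0 CPM (1.92 ± 0.21) and Ampd1 went from 4.55, 2.72 and 2.20 CPM to 0.284, 0.288, 0.293 and 0 CPM (-3.84 ± 0.95). Dorsal 5 had no Ampd1 count, and 3 counts there would be about 0.0857 CPM before TMM scaling. Guanine deaminase Gda rose by 2.92, with dorsal 3 highest at 287 CPM, and xanthine dehydrogenase Xdh, which forms uric acid, fell by 1.16.

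One-carbon metabolism had 14 of 30 genes higher and 3 lower, with a median of 0.24 that was 0.01 with upper-quartile scaling and -0.09 with library totals. Mthfd2, the mitochondrial folate enzyme of growing cells, was at 28.2, 34.7 and 42.5 CPM in the controls and 95.1, 145, 132 and 127 CPM in the dorsal libraries (1.83 ± 0.21), and its cytosolic relative Mthfd1 rose by 1.35. Phgdh, the first enzyme of serine synthesis, did not pass (68.0, 74.4 and 87.2 CPM against 85.0, 87.4, 99.2 and 97.8 CPM; 0.27 ± 0.14, adjusted p = 0.112). Asparagine synthetase Asns rose from 7.07, 11.3 and 32.6 CPM to 132, 160.5, 155 and 133 CPM (3.09 ± 0.50, and 3.94 without control 5). Mthfd2 and Asns separated the groups in every library, and Phgdh overlapped.

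Polyamine genes included 8 higher and 0 lower of 17 tested, with a median of 0.14 that lay below 0 with upper-quartile scaling and library totals. Odc1, the first enzyme of the pathway, was at 143, 159 and 211 CPM in the controls and 727, 937, 798 and 719.7 CPM in the dorsal libraries (2.22 ± 0.23). The spermine oxidase Smox rose from 35.8, 31.6 and 26.3 CPM to 231, 308, 219.7 and 209 CPM (2.95 ± 0.39), and Azin1, which protects ornithine decarboxylase from its inhibitor, rose by 1.56. Oaz1, that inhibitor, rose too (1.05 ± 0.08) and is named after its value was seen. Sat1, which acetylates polyamines for export, did not pass (-0.06, adjusted p = 0.669) but was lower with upper-quartile scaling (-0.29) and library totals (-0.39). The arginase gene Arg1 did not pass (-0.21, adjusted p = 0.87).

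Of 51 glutathione and thiol genes 31 were higher and 6 lower, with a median of 0.45. Prdx2, an abundant peroxidase of red cells, was at 118, 132 and 194 CPM in the controls and 1359, 1699, 1459 and 1228 CPM in the dorsal libraries (3.28 ± 0.36), the glutathione transferase Mgst3 rose by 4.02 and the quinone reductase Nqo1 by 2.97. Txnip, which binds thioredoxin and limits glucose uptake, went from 1389, 841 and 480.0 CPM to 288, 322, 291 and 245 CPM (-1.66 ± 0.29). Haem oxygenase Hmox1, another target of the same stress pathway as Nqo1, did not pass (-0.42, adjusted p = 0.151); it was lower with upper-quartile scaling (-0.65), with library totals (-0.76), without control 4 (-0.66, adjusted p = 0.0421) and without dorsal 2 (-0.66, adjusted p = 0.0174). In the pentose phosphate and NADPH list 11 of 16 genes were higher and 2 lower (median 0.43), with G6pdx, its entry enzyme, at 0.72.

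Lipid lists were closer to even. Phospholipid and triglyceride genes had 17 higher and 20 lower of 47, with the choline enzyme Pcyt1b rising by 3.44 and lipoprotein lipase Lpl falling by 1.36. Sphingolipid genes had 12 higher and 15 lower of 41. Within them Sphk1, which makes sphingosine 1-phosphate, was at 8.05, 12.6 and 22.0 CPM in the controls and 62.1, 67.4, 60.8 and 61.3 CPM in the dorsal libraries (2.14 ± 0.38), its exporter Mfsd2b rose by 2.74, and S1pr1, the receptor that lymphocytes use to leave lymphoid tissue, fell from 238, 212 and 208 CPM to 91.2, 110.1, 100.3 and 119 CPM (-1.06 ± 0.12). Alox5, which starts leukotriene synthesis in myeloid cells, rose from 1.27, 1.15 and 2.25 CPM to 7.18, 11.5, 7.06 and 4.27 CPM (2.26 ± 0.38) and the leukotriene B4 receptor Ltb4r1 by 1.88, beside the rise of the neutrophil list; the platelet and 15-lipoxygenase genes Alox12 and Alox15 did not pass (adjusted p = 0.926 and 0.713). Fatty acid oxidation had 17 of 41 genes higher and 2 lower (4 lower without dorsal 2), with a median of 0.17 that lay below 0 with both other scalings; Cpt1a, its gatekeeper, did not pass (0.30, adjusted p = 0.362).

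NAD and vitamin cofactor genes had 11 higher (7 without control 4) and 17 lower of 39. Acmsd, which diverts tryptophan breakdown away from NAD, was among the 15 largest rises under the naming rule, at 1.07, 1.18 and 1.81 CPM in the controls and 23.2, 34.5, 27.0 and 25.3 CPM in the dorsal libraries (4.34 ± 0.60). Nmnat3, an NAD synthase, rose by 2.82, while Parp9 and Parp14, also members of interferon programmes, fell by 1.63 and 1.72.

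Aminoacyl-tRNA synthetases, which load amino acids onto tRNA, were higher for 22 of 24 genes and lower for 0, with a median of 0.64. With upper-quartile scaling 16 were higher and 1 lower, and with library totals 13 and 2. Cars1 was at 26.0, 30.0 and 39.9 CPM in the controls and 73.7, 85.3, 82.5 and 77.8 CPM in the dorsal libraries (1.32 ± 0.17), and Aars1 at 109.9, 114 and 136 CPM and 294, 312, 288 and 277 CPM (1.29 ± 0.14). Both separated the groups in every library, which the naming rule requires. Nucleolar genes of ribosome assembly had 25 of 52 higher and 1 lower, but 12 higher without control 2 and 14 without control 4, and their median of 0.25 was 0.02 with upper-quartile scaling and -0.09 with library totals. Bysl and Nhp2, which help build the small subunit and guide RNA modification, rose by 1.15 and 1.06.

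Transcription factor lists leaned downwards. Of 32 nuclear receptors 1 was higher and 16 were lower, with a median of -0.40. The exception was Pparg, a receptor for fatty acids, at 9.28, 7.26 and 8.91 CPM in the controls and 16.2, 13.4, 12.6 and 12.9 CPM in the dorsal libraries (0.70 ± 0.13). The immediate early receptor Nr4a3 went from 10.0, 11.6 and 11.8 CPM to 4.20, 2.18, 4.16 and 4.11 CPM (-1.60 ± 0.22). Its relative Nr4a1 did not pass (-0.06, adjusted p = 0.752), but was lower with library totals (-0.40). In the SMAD, TCF, SOX, RUNX and FOX list 7 of 39 were higher and 23 lower. Sox6, which acts late in red cell maturation, was at 8.78, 7.33 and 6.27 CPM and 131, 192, 139 and 115 CPM (4.27 ± 0.65). The lymphocyte factors Lef1 and Tcf7 fell by 3.23 and 2.57 beside the T cell list; Lef1 was at 166, 111 and 97.4 CPM and 15.7, 14.6, 12.2 and 10.8 CPM. Foxo3, a FOXO factor active in red cell precursors, rose from 94.8, 86.0 and 81.2 CPM to 239, 315, 238 and 206 CPM (1.51 ± 0.13) and Foxo1, which keeps lymphocytes quiescent, fell from 182, 157 and 141 CPM to 116, 98.2, 115 and 114 CPM (-0.53 ± 0.10). The FOXO factors moved in opposite directions, and dorsal 3 was the lowest dorsal library for Foxo1.

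Factors of the MYC network were likewise split. Mxi1 and Mxd3, which oppose MYC at the same sites, rose by 1.97 and 2.93. Myc itself was at 136, 152 and 134 CPM in the controls and 76.4, 98.6, 125 and 78.3 CPM in the dorsal libraries (-0.57 ± 0.17, adjusted p = 0.0104), and Mycl fell by 1.60. The 4 dorsal libraries were below the controls in Mycl and above them in Mxi1. In the list of KLF and SP factors 8 of 22 were higher and 8 lower, with a median of 0.12. That median fell below 0 with both other scalings and without control 5. The list also counts Sp100 (-1.63), Sp110 (-0.90) and Sp140, which resemble the SP factors in name only. Klf5, a factor of growing epithelial and myeloid cells, rose by 2.57 and Klf15, a metabolic and glucocorticoid-responsive factor, fell by 1.42. Klf2, a quiescence factor of lymphocytes, passed (-0.59 ± 0.22) although its groups overlapped, and did not pass without control 2 (-0.46, adjusted p = 0.12), dorsal 4 (-0.52, adjusted p = 0.0786) or dorsal 5 (-0.53, adjusted p = 0.0758). Zbtb32, a repressor in lymphocytes, rose by 2.13. The list of HOX, TALE and other homeobox factors had 3 higher and 12 lower of 31, with Hoxb3 falling by 1.48. These counts include genes that are neither HOX nor TALE factors, such as the T cell organiser Satb1 (-1.06) and Zeb2 (0.69).

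Circadian clock genes, a loop of factors that switch each other with the time of day, were the list with the lowest median, -0.66, with 14 of 21 lower and 2 higher. Nr1d1, the repressor REV-ERB alpha, was at 27.4, 27.5 and 17.1 CPM in the controls and 5.05, 9.48, 8.07 and 7.88 CPM in the dorsal libraries (-1.65 ± 0.24, adjusted p = 6.14e-05). Per1, a light- and glucocorticoid-induced repressor, was at 71.9, 52.4 and 58.0 CPM and 22.6, 26.2, 31.5 and 22.1 CPM (-1.25 ± 0.17). In both genes all dorsal libraries were below all controls. The output factor Hlf fell from 8.57, 9.28 and 7.41 CPM to 2.16, 2.24, 3.12 and 2.06 CPM (-1.81 ± 0.16) and the repressor Ciart by 1.36. Dbp, the output factor that follows Nr1d1 closely in many tissues, passed (-0.82 ± 0.28, adjusted p = 0.0204) but not without control 2 (-0.69, adjusted p = 0.0765). Of the higher genes Nfil3, which opposes Dbp, was at 2.52, 1.73 and 2.75 CPM and 4.43, 4.58, 3.51 and 4.49 CPM (0.86 ± 0.20), and Bhlhe41 at 0.44, which did not pass with upper-quartile scaling (0.21), with library totals (0.10) or without control 4 (0.38, adjusted p = 0.053). Rora, an activator of the loop, was at 12.8, 13.0 and 11.5 CPM and 7.07, 5.16, 0.911 and 0.601 CPM and did not pass (-1.85, adjusted p = 0.0889), the dorsal libraries themselves being widely spread; it was lower with limma-voom (-2.49, adjusted p = 0.0143), with library totals (-2.20, adjusted p = 0.0419), blocked by replicate number (-2.51, adjusted p = 0.036) and without dorsal 2 (-2.48, adjusted p = 0.0462); it is named after its values were seen. The time of day of tissue collection is not in the labels.

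Start regions of the clock repressors are shown because the loop's activators bind the E-box. The word searched was CACGTG, which reads the same on both strands, and capitals mark each match. The Ciart window (chr3:95789491-95789790, minus strand) holds 3 matches, with first bases at -116, -58 and -44 from the start. The Per1 window (chr11:68989525-68989824, plus strand, 1 of 2 windows of the gene) holds 1, at -166.
Ciart: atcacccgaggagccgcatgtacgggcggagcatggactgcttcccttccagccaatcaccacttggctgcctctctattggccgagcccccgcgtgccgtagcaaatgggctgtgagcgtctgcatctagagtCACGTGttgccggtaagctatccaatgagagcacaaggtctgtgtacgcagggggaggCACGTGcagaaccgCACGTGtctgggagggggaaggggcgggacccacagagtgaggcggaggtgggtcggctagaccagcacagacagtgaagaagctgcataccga
Per1: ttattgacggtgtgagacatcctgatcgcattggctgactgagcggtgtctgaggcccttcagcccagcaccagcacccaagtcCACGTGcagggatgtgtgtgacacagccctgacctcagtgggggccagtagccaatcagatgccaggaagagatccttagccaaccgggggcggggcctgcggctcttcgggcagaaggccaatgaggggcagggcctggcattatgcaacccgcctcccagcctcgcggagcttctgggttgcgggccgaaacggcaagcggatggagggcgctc
Of 16 clock genes with a window 5 (31.2%) held the word, and 4 of these were lower and 1 higher, against 7.15% of all windows and 11.1% of tested genes. The share was no higher than in some other lists, with 15 of 48 lysosomal genes (31.2%; 8 higher and 2 lower) and 6 of 19 bZIP factors (31.6%) holding it. The lower genes were Per1, Cry1, Tef and Ciart and the higher one was Bhlhe41; Cry1 and Tef are named for their match.

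**Figure D4:**
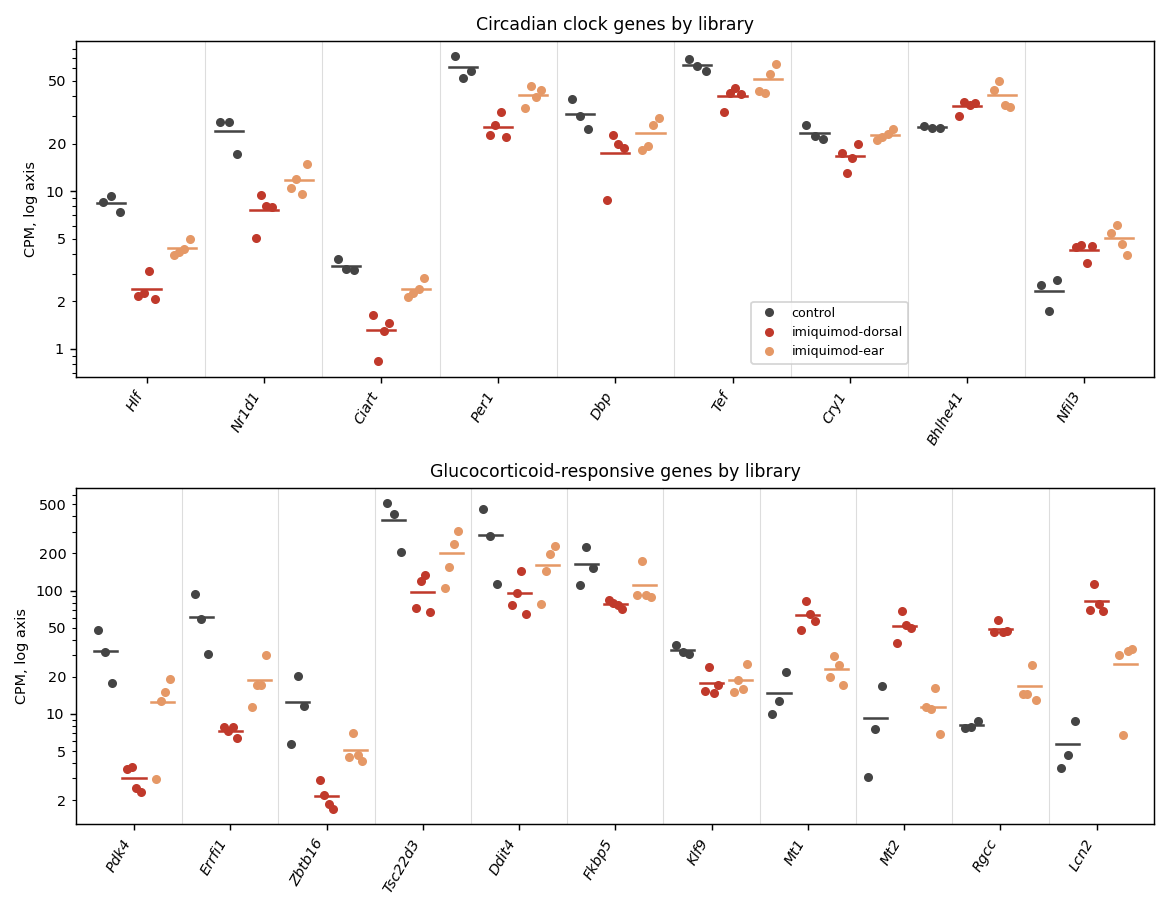
CPM on a log axis, 1 point per library with group means as bars, of clock genes (top) and glucocorticoid-responsive genes (bottom) in control, imiquimod-dorsal and imiquimod-ear spleen. Nr1d1, Per1, Pdk4, Errfi1 and Tsc22d3 lie below all controls in every dorsal library, and Mt1, Mt2, Rgcc and Lcn2 above them.

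Glucocorticoid-responsive genes, which adrenal steroids induce in many tissues, had 10 higher and 14 lower of 29, with a median of -0.47. Tsc22d3, known as GILZ and strongly induced in lymphocytes, was at 509, 415 and 204 CPM in the controls and 72.9, 119, 134 and 67.0 CPM in the dorsal libraries (-1.94 ± 0.45, adjusted p = 0.00276). Errfi1, a brake on the EGF receptor, fell from 94.3, 58.3 and 30.8 CPM to 7.78, 7.33, 7.77 and 6.42 CPM (-3.06 ± 0.46) and the BTB factor Zbtb16 by 2.52. Fkbp5, a chaperone of the steroid receptor, passed (-1.08 ± 0.33, adjusted p = 0.014) but not without control 4 (-0.82, adjusted p = 0.0632), and Klf9 fell by 0.87. On the other side the metallothionein Mt2, which binds zinc, was at 3.09, 7.58 and 16.9 CPM and 37.4, 67.9, 52.5 and 50.2 CPM (2.50 ± 0.48, and 3.24 without control 5), Rgcc rose by 2.61 and Lcn2, a granule protein that binds iron carriers, by 3.86. Metallothionein genes also answer to metals and inflammation, and Lcn2 is also a neutrophil gene.

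DNA methylation and Polycomb genes had 20 higher and 13 lower of 46, with a median of 0.05 that lay below 0 with both other scalings and without control 2. Ezh2, the methyltransferase of Polycomb complex 2, was at 44.1, 42.0 and 58.0 CPM in the controls and 170.2, 207, 192 and 175 CPM in the dorsal libraries (1.95 ± 0.23). Its partner Phf19 rose by 1.38 and Uhrf1, which brings DNA methylation to new DNA strands, by 2.51, whereas the relative Phf1 fell by 1.13, Cbx7 of complex 1 by 1.36 and the oxidase Tet1 by 1.13. The de novo methyltransferase Dnmt3b did not pass (-0.20, adjusted p = 0.21), but was lower with upper-quartile scaling (-0.43), with library totals (-0.54) and without dorsal 2 (-0.33, adjusted p = 0.0286). Homologous recombination and Fanconi genes had the highest list median, 1.01, with 38 of 45 higher and 3 lower. Brca1 was at 11.8, 14.0 and 22.4 CPM and 93.7, 112, 91.3 and 87.2 CPM (2.58 ± 0.30), its partner Bard1 rose by 2.28, the helicase Blm by 2.85 and Rad51ap1 by 2.93, beside 133 of 157 cell cycle genes. The kinases Atm and Atr, which signal damage, fell by 0.69 and 0.30. Bard1 is named for its start region.

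The windows of Ezh2 and Bard1 are shown because both genes rose and both hold an E2F word, the letters read by the E2F factors of the dividing cell. The words searched were TTTGGCGC and TTTCCCGC on either strand, and capitals mark the match. The Ezh2 window lies at chr6:47571915-47572214 (minus strand), with the match at 3 from the start, and the Bard1 window at chr1:71142082-71142381 (minus strand), with the match at -209.
Ezh2: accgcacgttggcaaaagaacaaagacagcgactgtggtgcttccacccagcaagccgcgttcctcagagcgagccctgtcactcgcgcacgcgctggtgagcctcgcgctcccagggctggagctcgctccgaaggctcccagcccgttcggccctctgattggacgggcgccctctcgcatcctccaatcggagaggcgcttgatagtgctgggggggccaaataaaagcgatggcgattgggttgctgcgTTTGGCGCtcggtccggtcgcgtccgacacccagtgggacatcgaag
Bard1: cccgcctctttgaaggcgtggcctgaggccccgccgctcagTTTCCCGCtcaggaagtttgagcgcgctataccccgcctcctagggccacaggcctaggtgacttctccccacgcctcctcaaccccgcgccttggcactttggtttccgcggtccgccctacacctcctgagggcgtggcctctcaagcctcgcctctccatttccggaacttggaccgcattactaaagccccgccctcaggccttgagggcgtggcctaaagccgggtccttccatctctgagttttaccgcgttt
An E2F word was held by 6 of 35 homologous recombination genes (17.1%; Brca2, Bard1, Rad51c, Fancg, Rmi1 and Chek2) and by 5 of 40 methylation and Polycomb genes (12.5%; Dnmt1, Hells, Ezh2, Suz12 and Phf19), and all of them were higher, though Rmi1 did not pass with upper-quartile scaling (0.12) and neither Rmi1 (0.01) nor Fancg (0.14) with library totals. Members outside the naming rule are given here for their match alone. As whole lists, 38 of 45 homologous recombination genes and 20 of 46 methylation and Polycomb genes were higher. Of all windows 1.56% and of tested genes 3.19% held an E2F word. It was also held by 3 of 22 ion exchangers (13.6%), none of them called, and by 2 of 17 ion pumps (11.8%), both lower.

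Stress lists did not move as units. Among 34 p53 targets 9 were higher and 13 lower: Gadd45a rose from 13.3, 12.9 and 11.1 CPM to 74.9, 95.4, 76.6 and 66.0 CPM (2.65 ± 0.33), while Cdkn1a, the classical arrest gene, did not pass (7.51, 10.2 and 11.4 CPM against 12.4, 10.9, 11.4 and 12.6 CPM, adjusted p = 0.188). Among 31 hypoxia-responsive genes 6 were higher and 10 lower; Bnip3l, a mitophagy receptor of maturing red cells, rose by 1.24, Vegfa fell by 0.80 and Epas1 by 0.85, and Hif1a did not pass (-0.18, adjusted p = 0.0731), but was lower with most other tools, scalings and filters, including DESeq2 (-0.21, adjusted p = 0.0306), and when control 4 (adjusted p = 0.0487) or control 5 (adjusted p = 0.044) was left out. Of 42 autophagy genes 19 were higher and 7 lower, with a median of 0.19 that lay below 0 with upper-quartile scaling and library totals. The receptor Optn rose from 17.9, 20.0 and 19.2 CPM to 65.0, 73.5, 60.4 and 57.7 CPM (1.75 ± 0.18) and Wipi1, an early autophagosome protein, by 1.92, while Tecpr1, which acts at damaged lysosomes, went from 87.7, 74.7 and 60.4 CPM to 21.4, 20.6, 22.6 and 21.2 CPM (-1.79 ± 0.19). Of 61 lysosomal genes 24 were higher (15 without control 4) and 16 lower, with Ctsf and Ctsd rising by 1.57 and 0.93 and Ctss, the protease of antigen presentation, falling by 0.63.

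In signalling and adhesion lists more genes were lower than higher. In the Wnt, Notch, TGF-beta and BMP list 35 of 69 were lower and 5 higher, with a median of -0.40; the Wnt feedback gene Axin2 was at 17.8, 15.5 and 10.4 CPM in the controls and 5.59, 4.26, 4.72 and 5.22 CPM in the dorsal libraries (-1.55 ± 0.19), the endothelial receptor Notch4 fell by 1.45 and Bmp4 by 1.72. Of 47 integrins and adhesion receptors 27 were lower and 7 higher, with a median of -0.52. The gut-homing integrin chain Itgb7 fell by 1.25, while Itgam, the myeloid integrin, rose from 22.2, 17.6 and 23.2 CPM to 119, 79.2, 82.5 and 74.1 CPM (2.08 ± 0.17) and the cadherin Cdh17 by 2.81. In the list of purinergic, lipid and other G protein-coupled receptors 19 of 42 were lower and 7 higher (4 without control 2). Among members that are neither purinergic nor lipid receptors, the complement receptors C5ar1 and C5ar2 rose by 2.40 and 2.50. Gpr132 fell by 1.39. Serpin and cystatin genes had 10 higher and 16 lower of 40, with Serpina3n, an acute phase inhibitor, falling by 1.47. All 10 higher genes rose at least 2-fold, whereas 6 of the 16 lower genes fell as much.

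The largest rises by the naming rule were led by Cldn2, a tight junction protein of leaky epithelia, at 0, 0.160 and 0.0777 CPM in the controls and 11.1, 2.08, 9.43 and 13.4 CPM in the dorsal libraries (6.84 ± 0.95, adjusted p = 0.000111). Control 2 had no count, and the value was 6.18 without control 2 and 7.68 without control 4. The apolipoprotein L gene Apol10a was at 0.104, 0.160 and 0.155 CPM and 14.9, 5.70, 4.16 and 8.20 CPM (5.86 ± 0.87), and the chemokine-binding receptor Ackr1 at 2.36, 2.69 and 2.23 CPM and 44.8, 65.3, 54.0 and 46.6 CPM (4.44 ± 0.66). Dorsal 3 was the lowest dorsal library for Cldn2 and the highest for Slc43a1 and Slc38a5. Of the largest falls, the macrophage elastase Mmp12 went from 8.86, 4.90 and 5.13 CPM to 0.312, 0.192, 0.228 and 0.443 CPM (-4.40 ± 0.43, adjusted p = 2.49e-06). The dendritic cell lectin genes Cd209a and Cd207 fell by 3.62 and 3.52, and the IL-25 receptor gene Il17rb by 3.51. Igf2, at 10.1, 10.8 and 6.91 CPM and 0.0851, 0, 0.0325 and 2.56 CPM, passed (-3.79 ± 1.26), but not with limma-voom (-6.24, adjusted p = 0.0561) or without dorsal 2 (-3.40, adjusted p = 0.0534), and was -7.70 without dorsal 5; dorsal 5 was the highest dorsal library, still below the controls, and dorsal 3 had no count.

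Against imiquimod on the ear, where the same cream was applied, 7237 genes (47.7%) differed, 24.5% of all tested genes being higher and 23.3% lower in imiquimod-dorsal spleen. Both comparisons share the dorsal libraries, so their values are given side by side. Imiquimod-ear 4 stood apart, with muscle markers at 1620 CPM against 23.0 to 27.1 CPM in the other imiquimod-ear libraries and erythroid genes at 61649 CPM against 11081 to 23120 CPM. Slc43a1 was at 28.2, 18.5, 67.8 and 19.5 CPM in imiquimod-ear libraries 1, 3, 4 and 5 (log2 fold change dorsal minus ear 3.03 ± 0.45, adjusted p = 0.000242) and Slc2a4 at 2.54, 0.948, 10.0 and 1.81 CPM (3.06 ± 0.58). All 4 imiquimod-ear libraries lay below all dorsal libraries in both genes, ear 4 being the highest of them; without it the differences were 3.63 and 4.16. The parts of the muscle RNA and of the erythroid RNA in the Slc2a4 level of ear 4 were not tested. Slc2a1 was at 45.1, 42.5, 41.6 and 46.6 CPM (-0.62 ± 0.10, adjusted p = 0.000183) and Nr1d1 at 10.5, 11.9, 9.55 and 14.9 CPM (-0.62 ± 0.23, adjusted p = 0.0366). The Nr1d1 difference did not pass without ear 3 (-0.64, adjusted p = 0.0567) or ear 5 (-0.50, adjusted p = 0.106). Tsc22d3, at 105, 156, 237 and 304 CPM, did not differ past the threshold (-1.03 ± 0.41, adjusted p = 0.06), and its groups overlapped; it passed without ear 1 (-1.27, adjusted p = 0.0268). Some genes with no called change from control were lower than in imiquimod-ear spleen, namely Phgdh (-0.51 ± 0.13, adjusted p = 0.00567), Pkm (-0.83 ± 0.14), Pfkp (-0.92 ± 0.16) and Slc7a11 (-0.91 ± 0.13). In these the imiquimod-ear mean was the highest. Means in control, dorsal and ear spleen were 76.5, 92.4 and 131 CPM for Phgdh and 502, 458 and 816 CPM for Pkm. For Pfkp they were 79.8, 60.9 and 115 CPM, and for Slc7a11 36.6, 31.7 and 59.8 CPM. Hk1 was higher than in imiquimod-ear spleen (1.77 ± 0.15). By list, 10 of 21 clock genes were lower and 0 higher than in imiquimod-ear spleen (median -0.35), 12 of 24 tRNA synthetases higher and 0 lower, 28 of 45 homologous recombination genes higher and 2 lower, and 8 of 27 glycolysis genes higher and 11 lower (median -0.21).

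**Figure D5:**
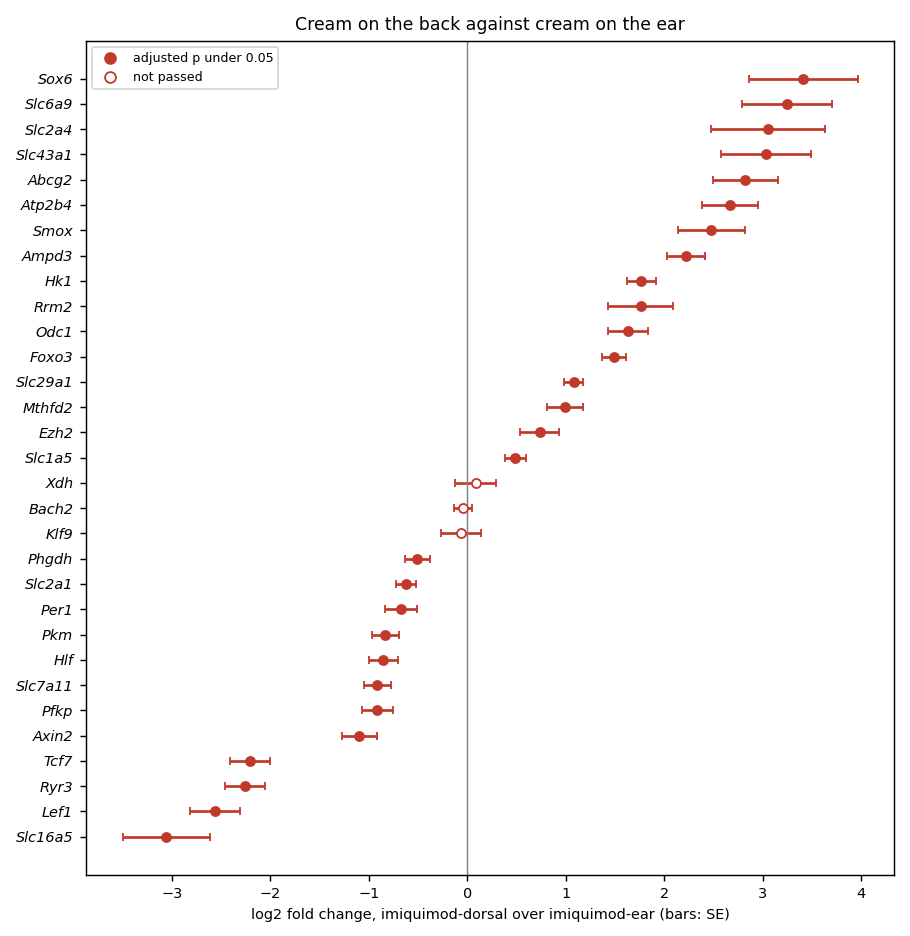
Log2 fold change of imiquimod-dorsal over imiquimod-ear spleen (horizontal axis, bars are SE) for 31 genes, filled where the adjusted p is under 0.05. Sox6 and Slc6a9 lie highest, Slc16a5 lowest, and Xdh, Bach2 and Klf9 did not pass.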

How the data were processed

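Spleen poly(A) RNA was sequenced. The authors deposited raw read counts, seen as whole numbers in their table; the submitters' processing notes name HISAT2 2.2.1, StringTie 2.2.1, featureCounts 2.0.3, fastp 0.23.2 and DESeq2 1.38.3 with genome build GRCm39, without saying what each did. The 624 of 22740 entries that are assembled loci without a name took 0.484% to 0.674% of counts per library and entered neither library sizes nor tests. Missing symbols came from GENCODE mouse release 39. Without strand, overlapping genes on opposite strands share reads.

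edgeR 4.0.16 in R 4.3.3 fitted all 14 libraries together (robust quasi-likelihood F test, TMM, filterByExpr at a minimum count of 10), with 10 residual degrees of freedom and a biological coefficient of variation of 18.7%. The contrasts were imiquimod-dorsal against control and against imiquimod-ear. Adjusted p-values are Benjamini-Hochberg values over all 15159 genes from this test, with a threshold of 0.05, except where another tool is named. Replicates of these 2 groups differed by more than sampling noise (chi-square per degree of freedom 24.4 to 85.4), and p-values measure only the spread between these samples. Depth allows up to 3 counts behind a 0, or 0.0745 to 0.106 CPM, counting error only.

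Members and lists were chosen with earlier results of these data known. Genes named are the 3 largest rises and 3 largest falls of each list and the 15 largest of each direction outside the cell type lists, required to be called, to have no overlap between groups and to reach a mean log2 CPM of 1; predicted genes, pseudogenes and receptor segments were passed over. A further set was named whatever its result, giving 332; some single-gene results are not reported here. Alternatives were DESeq2 1.42.0, limma-voom (limma 3.58.1), RLE, upper-quartile and library-total scaling, haemoglobin and immunoglobulin genes left out, no filter, at least 1 CPM in 3 libraries, only the 7 libraries, the replicate number as a block, and leaving out each library (imiquimod-ear ones added after seeing the data). The code was tested on simulated data. Motifs were searched in start regions of 11450 tested genes.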

Additional observations from a re-analysis of the deposited data

Results flagged for a closer look

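In groups of 4 libraries, a library whose gap to its nearest neighbour took a larger share of the group's range than Dixon's 95% critical value was looked at again. This held in 10 of 196 groups, where chance gives about 1 in 20. In 5 of them the library was dorsal 3, which was high at 99.2 CPM for Abcg4 (the other dorsal libraries 71.4 to 75.0 CPM), at 287 CPM for Gda (169.8 to 187 CPM) and at 58.2 CPM for Rgcc (45.8 to 46.8 CPM), and low at 98.2 CPM for Foxo1 (114 to 116 CPM) and at 2.18 CPM for Nr4a3 (4.11 to 4.20 CPM). Each of these 5 genes kept its call without dorsal 3. Dorsal 4 was high at 562 CPM for the summed pancreas genes (13.4 to 17.0 CPM) and at 2.44 CPM for Hoxb3 (1.68 to 1.79 CPM), and low at 3.51 CPM for Nfil3 (4.43 to 4.58 CPM). Dorsal 5 was high at 2.56 CPM for Igf2 (0 to 0.0851 CPM) and had 0 CPM for Ampd1 (0.284 to 0.293 CPM).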

How the results depend on the processing

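The number of calls stayed within 1.5 times with each tool and filter, and the balance of higher and lower genes moved with the scaling. The 9071 changed genes ranged from 8086 to 9991 over the other settings and from 8023 to 8775 when 1 library was left out. Library totals gave 2749 higher genes in place of 4890, and 6302 (upper-quartile scaling) and 7242 (library totals) genes were lower in place of 4181. Leaving out 1 library gave 3994 to 4719 higher and 3829 to 4344 lower genes. Of the 50 lists 21 had a median above 0, 12 with upper-quartile scaling, 9 with library totals and 18 to 23 without 1 library. Among the 332 named genes 279 differed from imiquimod-ear, 267 to 281 without 1 library and 264 to 292 otherwise. Of 171 called genes named in the text 162 kept their direction and their side of the threshold under every setting; the other 9 were Bhlhe41, Dbp, Fancg, Fkbp5, Igf2, Klf2, Ldha, Pfkl and Rmi1, with values given above. The sign of Pfkl turned with library totals (-0.014, not passing). The cause of these losses was not tested. Control and dorsal libraries of the same number did not deviate together (correlations of -0.02, -0.05 and -0.04, against -0.09 to 0.08 for different numbers). No pairing by number was thus seen, but with so few libraries a weak one could be missed. With the replicate block 8086 genes were called, 4438 higher and 3648 lower, and Klf2 and Ldha were no longer called. With 3 and 4 animals, genes of a few CPM carry the widest errors.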

Other observations

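Genes outside the main account also differed between the groups. In the list of dual-specificity phosphatases and other signalling brakes 4 of 32 were higher and 12 lower. It also counts regulators of G protein signalling such as Rgs1, which fell by 1.94. Dusp8, a phosphatase of stress kinases, was at 1.95, 1.73 and 1.84 CPM in controls 2, 4 and 5 and 24.0, 27.8, 22.5 and 18.3 CPM in dorsal 2 to 5 (3.65 ± 0.54, adjusted p = 9.51e-05), and Dusp5, which acts on ERK in the nucleus, at 22.7, 25.7 and 27.5 CPM and 9.76, 8.39, 9.14 and 9.08 CPM (-1.48 ± 0.11, adjusted p = 7.56e-07). No library of one group lay in the range of the other, which the naming rule requires. Among the carbonic anhydrases, which hydrate carbon dioxide, 3 of 9 were higher and 2 lower. Car2, abundant in red cells, was at 146, 166 and 274 CPM and 2823, 3797, 3177 and 2802 CPM (4.01 ± 0.67), and Car12, a surface form, at 3.46, 3.33 and 2.59 CPM and 1.31, 1.15, 0.520 and 1.65 CPM (-1.43 ± 0.28). The thromboxane receptor gene Tbxa2r fell by 1.41 and the ADP receptor gene P2ry1 of platelets rose by 1.29.

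A few rising genes had their lowest dorsal level in dorsal 3, the library with the highest summed level of erythroid genes. Drp2, a dystrophin relative, was at 0.338, 0.256 and 0.388 CPM in the controls and 8.37, 2.95, 11.7 and 11.4 CPM in the dorsal libraries, and the cadherin Cdh17 at 9.38, 8.42 and 11.9 CPM and 72.4, 46.8, 77.5 and 81.4 CPM, as was seen for Cldn2. These genes were grouped after their values were seen, and no test was run.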
